A study of Arabidopsis thaliana with 2 samples.

Results

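Expansins and xyloglucan endotransglucosylase/hydrolases (XTH) are the wall-loosening and wall-remodelling families described here in the globular embryo of Arabidopsis thaliana. The set was fixed by gene identifier as 59 genes, of which 26 are expansins (EXPA1 to EXPA18, EXPA20, EXPB1 to EXPB3, EXLA1 to EXLA3 and EXLB1) and 33 are XTH1 to XTH33, among 20029 genes listed in either library. The expansins of the EXPA21 to EXPA26 array lie outside it. A gene missing from a file was counted as 0, and 36 of the 59 were listed in at least 1 library. Of those, 26 reached 1 RPKM (reads per kilobase of gene, scaled for library size) in at least 1 library, 11 expansins and 15 XTH genes.

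There were 2 libraries, 1 of the suspensor, the stalk that ties the embryo to maternal tissue, and 1 of the embryo proper, the apical sphere that becomes the seedling. Both came from the accession Ws-0 with no transgene or treatment named. For both, the labels give plants 38 to 46 days old, siliques of 1.1 to 1.4 cm and a temperature of 20 °C. The parts were laser-cut from paraffin sections of 5 or 7 µm through seeds whose globular embryo was 24 to 32 µm wide. The comparison asks how transcript levels differ between the parts of the embryo. With 1 library per part there is no replicate check and no test, so each difference describes these libraries only. The suspensor library held 7189169 reads assigned to genes and the embryo proper library 12715910, both recovered from the deposited values. Each fold of a gene listed in both libraries is followed by its 95% exact binomial interval on those reads. For the sum of a family, the reads were pooled and the limits rescaled to RPKM. These intervals cover counting error only. Amplified reads are not independent molecules, so the intervals can be too narrow even for that. A gene is called suspensor-high or embryo-proper-high where the parts differed by 2-fold or more on the scale of log2(RPKM + 1). In captured tissue, fewer cells of a type and less RNA per cell cannot be told apart.

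The part labels were set beside defining genes. These lists were chosen with earlier results of these data known, so they are no independent check of the labels. The 5 suspensor markers WOX8, PIN7, WRKY2, HDG11 and SSP summed to 371 RPKM in the suspensor and 18.1 RPKM in the embryo proper, and the 5 embryo proper markers WOX2, PHB, AGO10, CUC3 and DRNL to 15.6 RPKM in the suspensor and 411 RPKM in the embryo proper. Markers of the surrounding seed tissues also differed. The 9 endosperm markers summed to 351 RPKM in the suspensor against 22.7 RPKM in the embryo proper, and 8 of the 8 that reached 1 RPKM were suspensor-high. The remaining one, PHE1, had 0.828 RPKM from 5 reads in the suspensor and 0.936 RPKM from 10 reads in the embryo proper. The 12 seed coat markers summed to 118 RPKM in the suspensor against 6.81 RPKM in the embryo proper, and 8 of 10 were suspensor-high. Among all nuclear protein-coding genes that reached 1 RPKM, 29.3% were suspensor-high. The seed coat marker MYB5 lay the other way, at 0.927 RPKM in the suspensor and 2.20 RPKM in the embryo proper. The seed coat regulator TT16 was not listed in either library. TT2, TT8, TT10 and BAN had no listed value in the embryo proper, and 14, 41, 45 and 11 reads in the suspensor. These differences stand beside every member that was higher in the suspensor, and their part in those results was not tested.

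A growing plant cell yields to turgor because its wall gives way in a controlled manner. Expansins are small secreted proteins that loosen the bonds between cellulose and other polysaccharides without cutting chains, and they act best in acid walls, which plasma membrane proton pumps provide. XTH enzymes cut xyloglucan, the main hemicellulose of the primary wall in this species, and most rejoin the cut end to another xyloglucan chain, so that the network can be loosened, extended or strengthened.

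Transcripts of the 26 expansins of the set reached a similar total in both parts but came mostly from different genes. The 26 summed to 911 RPKM in the suspensor and 865 RPKM in the embryo proper, a ratio of 1.05 (1.02 to 1.09). That ratio became 0.971 when the libraries were scaled to a median log2 ratio of 0, and 1.30 when scaled without their 10 most abundant genes. The 10 expansins outside the set, described below, are not in these sums. They summed to 10627 RPKM in the suspensor and 672 RPKM in the embryo proper. EXPA14 (AT5G56320), known from lateral root emergence, made 64.8% of the suspensor sum and 0.249% of the embryo proper sum. EXPA15 (AT2G03090) made 12.0% of the suspensor sum and 82.6% of the embryo proper sum. Without EXPA14 the ratio of the sums was 0.372, and without EXPA15 it was 5.33. EXPA14 was higher in the suspensor and EXPA15 in the embryo proper, so the way each ratio moved was fixed by the gene left out. With both left out the sums were 211 RPKM in the suspensor and 148 RPKM in the embryo proper.

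**Figure D1:**
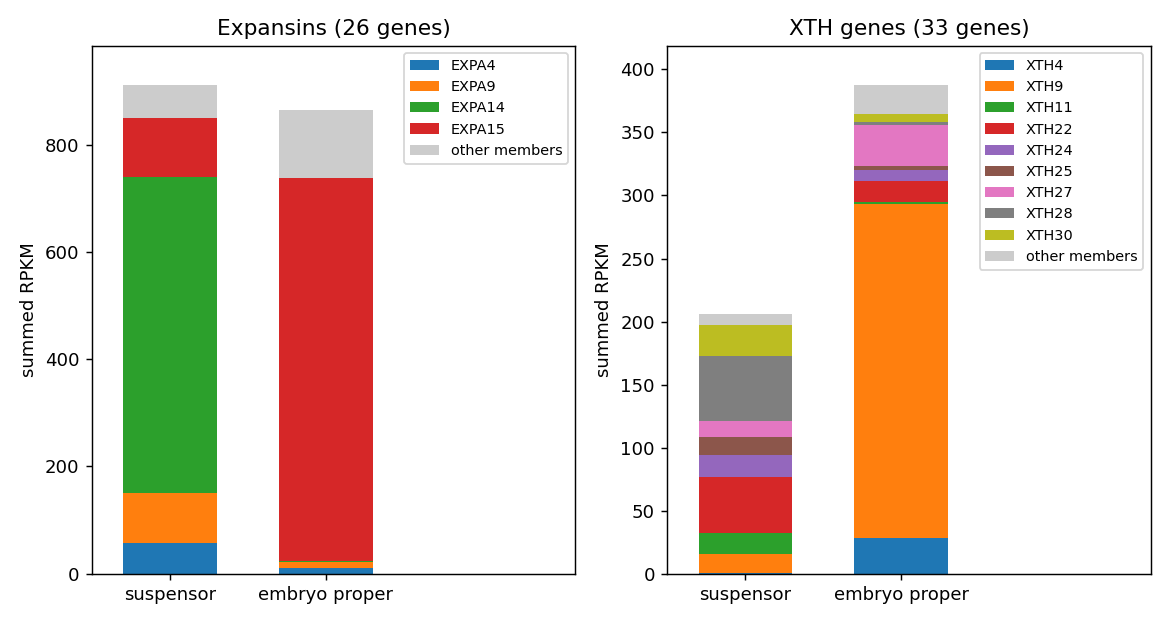
Summed RPKM of the 26 expansins (left) and the 33 XTH genes (right) in the suspensor and the embryo proper library, stacked by gene, with members that stay under a small share of both sums pooled in grey. EXPA14 fills most of the suspensor's expansin bar and EXPA15 most of the embryo proper's, and XTH9 fills 68.5% of the embryo proper's XTH bar.

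The coding stretch around a conserved triplet of expansin domain 1, in capitals, is shown for the 5 expansins with the largest differences, to let the suspensor genes be compared with the embryo proper genes. It is the Columbia reference sequence from RefSeq (TAIR10.1), sense strand, and not a sequence read from these Ws-0 libraries.
EXPA14: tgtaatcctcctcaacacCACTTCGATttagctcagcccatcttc
EXPA9: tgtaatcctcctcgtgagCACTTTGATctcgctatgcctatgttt
EXPA4: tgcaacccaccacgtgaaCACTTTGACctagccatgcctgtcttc
EXPA15: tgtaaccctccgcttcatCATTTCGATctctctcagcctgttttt
EXPA6: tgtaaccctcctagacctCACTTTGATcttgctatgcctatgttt
The capitals mark the codons of the His-Phe-Asp triplet, found in 20 of the 26 members. EXPA14 and EXPA15 differed at 13 of the 45 bases shown, and EXPA4 and EXPA6 at 14. Over whole coding sequences the member nearest to EXPA14 was EXPA1, at 72.7% identity, and the one nearest to EXPA15 was EXPA10, at 76.2%. No identical run in either alignment was longer than 33 bases, and the counting of reads that match several genes is not stated in the sources used here.

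Of the 11 expansins that reached 1 RPKM, 5 were suspensor-high, 5 were embryo-proper-high and 1 was within 2-fold. The embryo-proper-high count was 2 with a pseudocount of 5 RPKM, and 3 when the libraries were scaled without their 10 most abundant genes, where EXPA10 and EXPB3 no longer passed. Among all 16862 nuclear protein-coding genes that reached 1 RPKM, 29.3% were suspensor-high and 23.2% embryo-proper-high. At 4-fold on the same scale 3 expansins passed on the suspensor side, where 12.4% of all genes lay, and 2 on the embryo proper side, where 8.37% lay. The median log2 ratio was −0.34 over these expansins and 0.13 over all genes, a small value for a family whose members lay between −4.51 and 7.55.

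EXPA14 was the most suspensor-biased member of either family. It stood at 591 RPKM in the suspensor and 2.15 RPKM in the embryo proper, from 3262 and 21 reads, and was 275-fold higher in the suspensor (179 to 444). It ranked 259th of 18672 listed genes in the suspensor library and 13654th of 18071 in the embryo proper library. EXPA9 (AT5G02260) stood at 92.9 RPKM in the suspensor and 11.7 RPKM in the embryo proper, 7.91-fold higher (6.46 to 9.76). EXPA4 (AT2G39700) stood at 56.8 RPKM in the suspensor and 9.65 RPKM in the embryo proper, 5.88-fold higher (4.66 to 7.48). EXPA9 and EXPA4 thus lay near the middle of the listed genes of the embryo proper, at ranks 8014 and 8796, while EXPA14 lay well below them. EXPA20 (AT4G38210) had 11.9 RPKM in the suspensor and 2.55 RPKM in the embryo proper, 4.67-fold higher (2.91 to 7.72). EXPA3 (AT2G37640) had 34 reads and 5.99 RPKM in the suspensor, against 11 reads and 1.10 RPKM in the embryo proper.

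In the other direction, EXPA15 stood at 109 RPKM in the suspensor and 714 RPKM in the embryo proper, and was 6.54-fold lower in the suspensor (6.02 to 7.12). It ranked 288th in the embryo proper library and was still the second most abundant of the 26 in the suspensor. EXPA6 (AT2G28950) was the most uneven of this group, at 0.899 RPKM in the suspensor, from 5 reads, and 42.4 RPKM in the embryo proper, 47.1-fold lower in the suspensor (20.0 to 146). EXPA15 was thus abundant in both parts, whereas EXPA6 rested on few reads in the suspensor. EXPA10 (AT1G26770), which promotes leaf growth, had 16.2 RPKM in the suspensor and 34.3 RPKM in the embryo proper, 2.11-fold lower in the suspensor (1.67 to 2.69). EXPA13 (AT3G03220) had 6.08 RPKM in the suspensor and 17.1 RPKM in the embryo proper. EXPB3 (AT4G28250), the 1 beta-expansin of the set to reach 1 RPKM, had 2.80 RPKM in the suspensor and 7.62 RPKM in the embryo proper. EXPA5 (AT3G29030), a growth expansin of leaves, had 15.9 RPKM in the suspensor and 20.4 RPKM in the embryo proper, a ratio of 0.782 whose interval (0.602 to 1.01) includes equality.

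The other 15 expansins were under 1 RPKM in both libraries. Of these, 6 were listed, EXPA1, EXPA12, EXPA16, EXPB1, EXLA1 and EXLA2, with 1 to 6 reads and 0.170 to 0.840 RPKM in a library where listed. EXPA1, a guard cell expansin, had 5 reads in the suspensor and 2 reads in the embryo proper. Neither library listed the other 9, namely EXPA2, EXPA7, EXPA8, EXPA11, EXPA17, EXPA18, EXPB2, EXLA3 and EXLB1. They include EXPA7 and EXPA18, the root hair expansins, and EXPA2, an expansin of germinating seeds. A count of 0 allows up to 3 reads, which for these genes is 0.508 to 0.554 RPKM in the suspensor and 0.287 to 0.313 RPKM in the embryo proper. The expansin-like genes EXLA1 to EXLA3 and EXLB1 were under 1 RPKM in both parts.

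**Figure D2:**
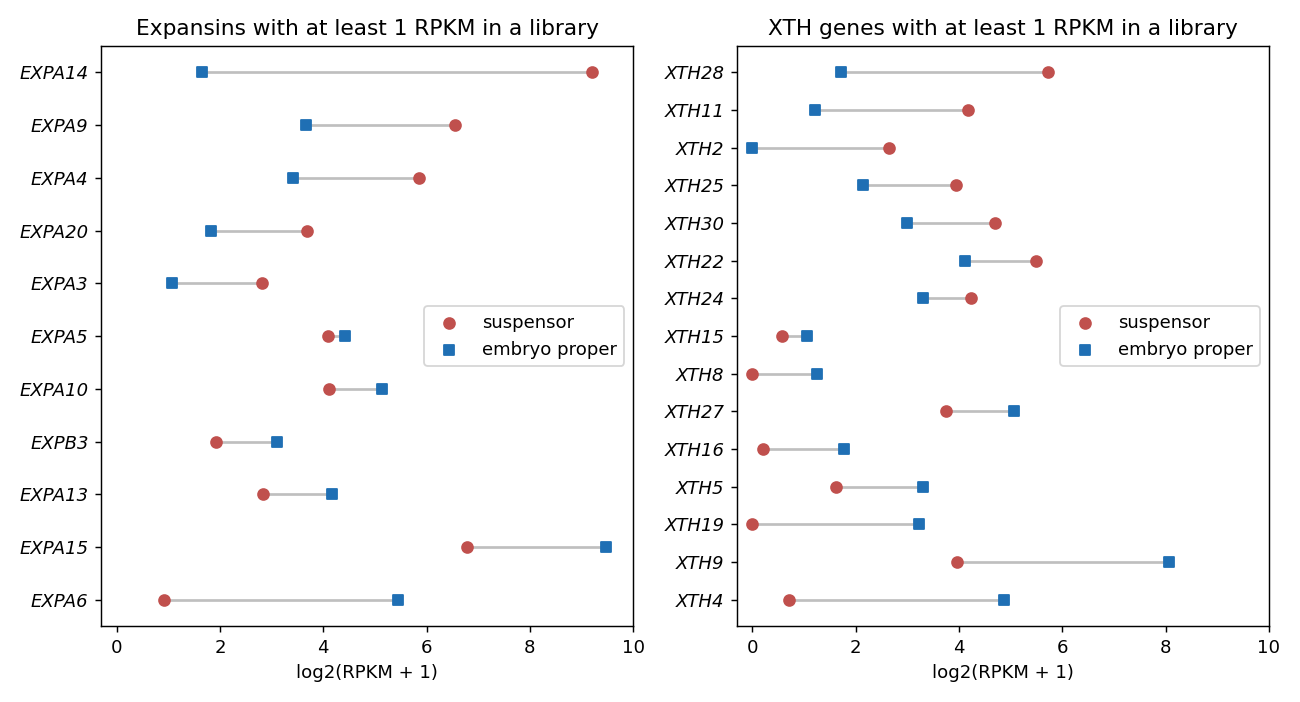
Level of each member with at least 1 RPKM in a library, as log2(RPKM + 1), with circles for the suspensor and squares for the embryo proper, for 11 expansins (left) and 15 XTH genes (right), ordered by the ratio of the parts. EXPA14 has the widest gap, and XTH2, XTH8 and XTH19 touch 0 in 1 library.

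XTH transcripts had the larger sum in the embryo proper, and there too a single gene made most of it. The 33 genes summed to 206 RPKM in the suspensor and 388 RPKM in the embryo proper, a ratio of 0.532 (0.500 to 0.565). XTH9 (AT4G03210), known from the shoot apex, made 7.11% of the suspensor sum and 68.5% of the embryo proper sum. Without it the sums were 191 RPKM in the suspensor and 122 RPKM in the embryo proper, a ratio of 1.57. No such single gene led in the suspensor, where XTH28 made 25.1%, XTH22 21.4%, XTH30 12.0%, XTH24 8.66% and XTH11 8.25% of the sum.

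The active site of an XTH holds 2 catalytic glutamates with an aspartate between them. Its coding stretch is printed for XTH genes from both sides of the comparison, with the codons of those 3 residues in capitals, again as the Columbia reference from RefSeq (TAIR10.1), sense strand.
XTH28: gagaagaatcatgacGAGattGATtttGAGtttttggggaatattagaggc
XTH27: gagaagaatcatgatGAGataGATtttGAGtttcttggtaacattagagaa
XTH22: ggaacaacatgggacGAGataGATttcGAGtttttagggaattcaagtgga
XTH9: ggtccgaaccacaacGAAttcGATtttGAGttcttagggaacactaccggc
XTH4: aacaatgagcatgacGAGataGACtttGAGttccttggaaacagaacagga
XTH18: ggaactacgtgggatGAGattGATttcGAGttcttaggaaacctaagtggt
XTH19: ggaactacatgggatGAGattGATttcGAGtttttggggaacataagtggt
A stretch of this form was found in 32 of the 33 members, and XTH11 had no match to the pattern searched. XTH28 differed from XTH27, its closest relative, at 8 of the 51 bases shown and from XTH9 at 16. XTH18 and XTH19 differed at 5.

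Of the 15 XTH genes that reached 1 RPKM, 6 were suspensor-high, 7 were embryo-proper-high and 2 were within 2-fold, beside the same 29.3% and 23.2% of all genes. The embryo-proper-high count was 4 with a pseudocount of 5 RPKM and 3 with a filter of 10 RPKM. At 4-fold on log2(RPKM + 1) 3 lay on each side. The median log2 ratio was −0.49, with a range of −4.17 to 4.01. This median changed sign with the filter, to 1.38 with a filter of 10 RPKM, 0.94 with at least 20 reads and 0.22 for genes listed in both files.

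XTH28 (AT1G14720), which acts in stamen filament growth, led the suspensor group. It stood at 51.8 RPKM in the suspensor and 2.28 RPKM in the embryo proper, from 372 and 29 reads, and was 22.7-fold higher in the suspensor (15.5 to 34.4). XTH11 (AT3G48580) had 17.0 RPKM in the suspensor and 1.32 RPKM in the embryo proper, 12.9-fold higher (7.34 to 24.4). XTH2 (AT4G13090) had 33 reads and 5.22 RPKM in the suspensor and no listed value in the embryo proper. Its suspensor value was 19.5-fold above the floor of 3 reads in the embryo proper, with counting error in the suspensor left out. These were the 3 suspensor-high XTH genes past 4-fold on log2(RPKM + 1), and XTH28 had the highest level of them. The differences of the next genes were smaller on that scale. XTH25 (AT5G57550) had 14.3 RPKM in the suspensor and 3.40 RPKM in the embryo proper, 4.21-fold higher (2.83 to 6.36). XTH30 (AT1G32170) had 24.8 RPKM in the suspensor and 6.93 RPKM in the embryo proper, 3.58-fold higher (2.77 to 4.65). XTH22 (AT5G57560), the touch-induced gene TCH4, had 44.1 RPKM in the suspensor and 16.4 RPKM in the embryo proper, 2.69-fold higher (2.22 to 3.27). XTH24 (AT4G30270), first isolated from the shoot meristem, stood at 17.9 RPKM in the suspensor and 8.84 RPKM in the embryo proper. Its ratio of 2.02 (1.51 to 2.71) falls under 2-fold on the log2(RPKM + 1) scale, at 0.94.

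The embryo proper group was led by XTH9, at 14.7 RPKM in the suspensor and 265 RPKM in the embryo proper, from 92 and 2946 reads, and 18.1-fold lower in the suspensor (14.7 to 22.5). XTH4 (AT2G06850), an endoxyloglucan transferase, had 0.624 RPKM in the suspensor, from 4 reads, and 28.2 RPKM in the embryo proper, 45.1-fold lower in the suspensor (17.4 to 166). XTH19 (AT4G30290), a gene of the root, had no listed value in the suspensor and 8.30 RPKM from 88 reads in the embryo proper. That value was 16.6-fold above the floor of 3 reads in the suspensor, with counting error in the embryo proper left out. XTH9 combined a large difference with a high level, and it ranked 686th in the embryo proper library, where the next XTH gene stood at 32.3 RPKM. That gene was XTH27 (AT2G01850), which acts in leaf vein formation, with 12.5 RPKM in the suspensor and 32.3 RPKM in the embryo proper, 2.59-fold lower in the suspensor (2.06 to 3.29). XTH5 (AT5G13870) had 2.05 RPKM in the suspensor and 8.92 RPKM in the embryo proper, 4.35-fold lower in the suspensor (2.43 to 8.45). XTH16 (AT3G23730) rested on 1 read in the suspensor and 27 reads in the embryo proper. XTH8 (AT1G11545) had no read in the suspensor and 16 reads in the embryo proper. XTH15 (AT4G14130) had 0.480 RPKM in the suspensor and 1.09 RPKM in the embryo proper, and its interval (0.0801 to 1.64) includes equality. Around the filter of 1 RPKM the members just inside were XTH15 and XTH8, at 1.09 and 1.37 RPKM in their higher library, and the members just outside were EXPA1 and EXLA1, at 0.840 and 0.697 RPKM.

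The remaining 18 XTH genes stayed under 1 RPKM. XTH7, XTH18, XTH29 and XTH33 were listed with 1 to 4 reads, at 0.158 to 0.357 RPKM. Neither library listed the other 14, which are XTH1, XTH3, XTH6, XTH10, XTH12, XTH13, XTH14, XTH17, XTH20, XTH21, XTH23, XTH26, XTH31 and XTH32. XTH31, which mainly hydrolyses xyloglucan, and its closest relative XTH32 are among them. The 3 reads that a count of 0 allows correspond to 0.455 to 0.492 RPKM in the suspensor and 0.257 to 0.278 RPKM in the embryo proper for these genes.

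The XTH subfamilies differed in where their sums lay. Group I, XTH1 to XTH11, summed to 39.7 RPKM in the suspensor and 306 RPKM in the embryo proper, with 2 suspensor-high and 4 embryo-proper-high members. Group II, XTH12 to XTH26, summed to 77.1 RPKM in the suspensor and 40.4 RPKM in the embryo proper, with 2 members called in each direction. Group III, XTH27 to XTH33, summed to 89.4 RPKM in the suspensor and 41.7 RPKM in the embryo proper, with 2 suspensor-high members and 1 embryo-proper-high. Single genes led these sums. XTH9 made 86.9% of the embryo proper sum of group I, XTH22 57.2% of the suspensor sum of group II and XTH28 58.0% of that of group III. The counts rest on 6, 6 and 3 genes that reached 1 RPKM in groups I, II and III. Over all genes, 29.3% were suspensor-high and 23.2% embryo-proper-high.

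Close relatives differed in level in several cases. When each member was matched to the member of its own family with the most similar coding sequence, 17 pairs chose each other. In 7 of the pairs no gene reached 1 RPKM, in 6 exactly 1 did, and in 4 both did. Among the 4, XTH27 and XTH28, 77.7% identical, lay in opposite directions, with log2 ratios of −1.30 and 4.01. The other 3, EXPA3 with EXPA9, XTH4 with XTH5 and XTH15 with XTH16, had the same direction in both genes. Among the 6, EXPA4 stood at 56.8 RPKM in the suspensor and 9.65 RPKM in the embryo proper while EXPA16, 81.1% identical, had 1 read in the suspensor and 6 reads in the embryo proper. XTH22 was present in both libraries and XTH23, 80.9% identical to it, in neither. EXPA10 and EXPA1, 79.2% identical, both had reads in both libraries, yet EXPA1 stayed at 0.840 RPKM in the suspensor and 0.190 RPKM in the embryo proper.

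**Figure D3:**
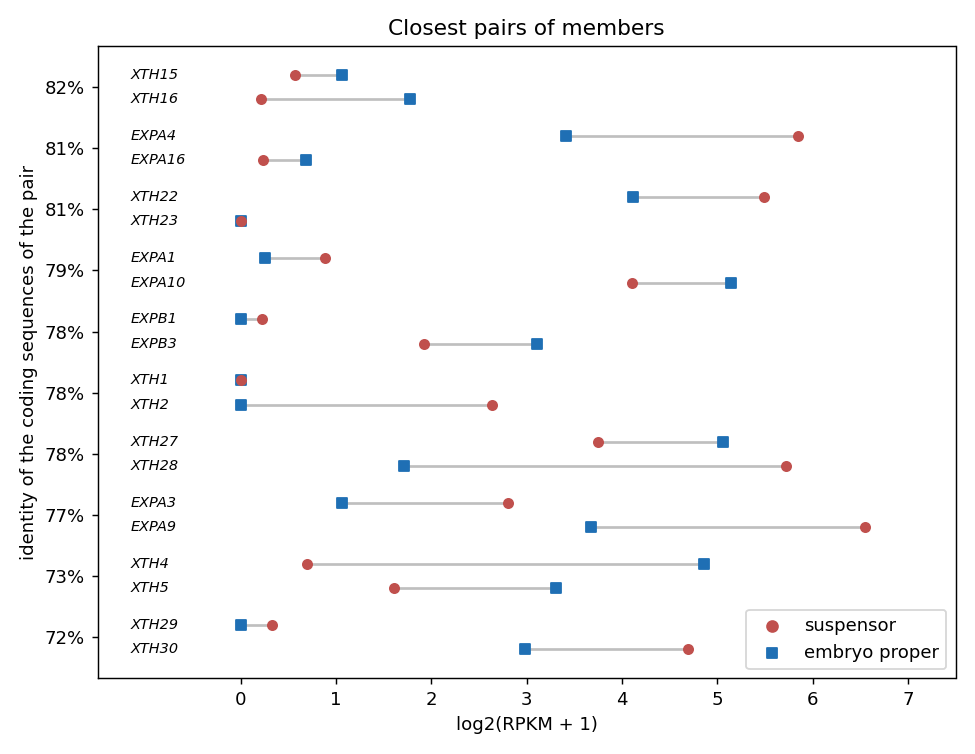
The 10 pairs of closest members in which at least 1 gene reached 1 RPKM, with the identity of their coding sequences at the left and log2(RPKM + 1) of each gene as a circle for the suspensor and a square for the embryo proper. XTH27 and XTH28 lie in opposite directions, and in 6 pairs 1 gene stays under 1 RPKM in both libraries.

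Not all members are dispersed in the genome. In the RefSeq gene order, 11 XTH genes and 2 expansins lie next to another member or with 1 gene between them. On chromosome 4, XTH24, XTH18 and XTH19 are consecutive and each had its own pattern. XTH24 stood at 17.9 RPKM in the suspensor and 8.84 RPKM in the embryo proper, XTH18 had 1 read in the suspensor and none in the embryo proper, and XTH19 was listed in the embryo proper alone. XTH18 and XTH19 are 89.2% identical and share a run of 68 identical bases, the longest between closest members, so reads wholly inside that run cannot be assigned to either by sequence alone. On chromosome 5, XTH25 and XTH22 are neighbours and both were higher in the suspensor, beside XTH12 and XTH13, which were not listed. XTH1 and XTH2 on chromosome 4 are neighbours too, and XTH2 alone had reads. EXLA3 and EXLA1 are adjacent on chromosome 3, and XTH23 and XTH14, adjacent on chromosome 4, were not listed.

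Set side by side, the families had the same kind of split. Their medians differed by 0.16 on the log2 scale, a difference that changed sign in 5 of the alternatives, down to −1.71 with a filter of 10 RPKM, and with 1 library per part it was not tested. The share of members at least 2-fold apart in either direction was 90.9% for the 11 expansins and 86.7% for the 15 XTH genes, beside 52.4% for all genes that reached 1 RPKM, and the shares at 4-fold were 45.5% and 40.0%, beside 20.8%. The median size of the log2 ratio, sign ignored, was 1.86 for expansins, 1.70 for XTH genes and 1.05 for all genes. In 20 of the 23 members at 2-fold the gene was listed in both libraries, and in each of those 20 the counting interval of the fold excluded equality. Those 20 were picked by the size of the same difference, so their intervals are no separate support for the split. The families differed in dominance and in sum: among the 59 genes, expansins were led by a different gene in each part at a similar total, whereas XTH genes were led by XTH9 in the embryo proper and shared among several in the suspensor.

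**Figure D4:**
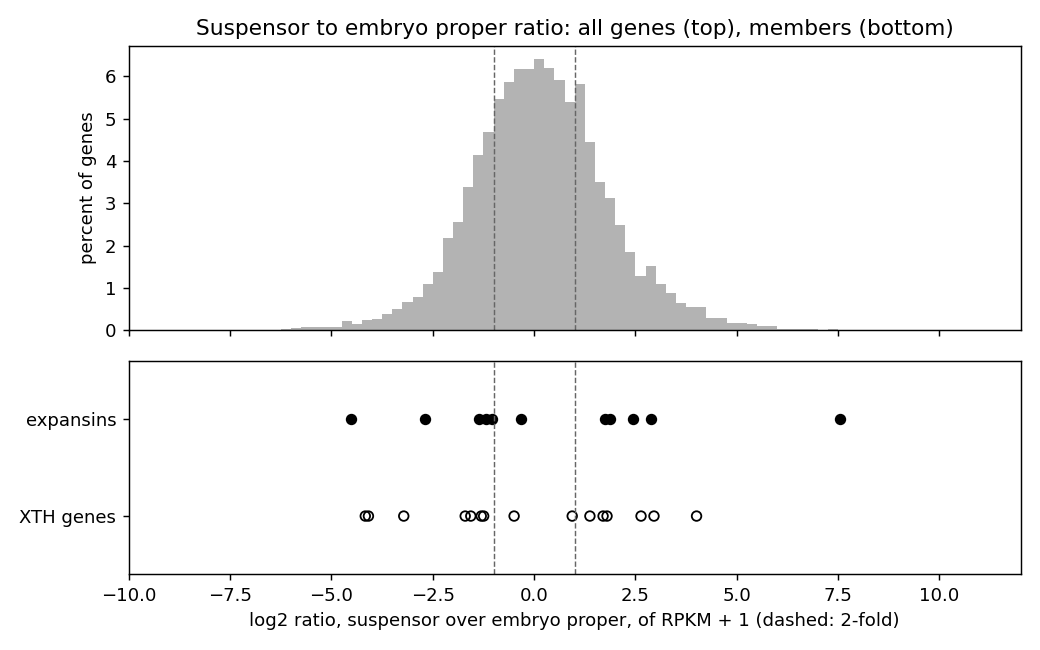
Log2 ratio of the suspensor to the embryo proper, on RPKM + 1, for the 16862 nuclear protein-coding genes that reached 1 RPKM (top, percent of genes) and for the 11 expansins and 15 XTH genes (bottom, 1 point per gene), with dashed lines at 2-fold. Only EXPA5, XTH15 and XTH24 of the 26 members lie between the dashed lines.

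Expansins outside the set had another pattern, with a sum far higher in the suspensor than that of the 26. Of 10 such genes, 6 reached 1 RPKM and all 6 were suspensor-high, beside 29.3% of all genes. The median of their log2 ratios was 3.70, beside 0.13 for all genes. All of the 6 but EXPB4 belong to the EXPA21 to EXPA26 array, so the 6 are not independent cases. Recovered reads of these array genes lay 0.116 to 0.416 from a whole number, against at most 0.0121 among members. Whether reads shared between array genes add to their common direction was not tested. The 10 genes summed to 10627 RPKM in the suspensor and 672 RPKM in the embryo proper, of which EXPA21 made 55.7% of the suspensor sum and 74.9% of the embryo proper sum. EXPB4 (AT2G45110), a beta-expansin not in that array, stood at 181 RPKM in the suspensor and 11.7 RPKM in the embryo proper, 15.5-fold higher (12.7 to 18.9), unlike its family member EXPB3.

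Genes that supply the conditions and substrate for these proteins were described from fixed lists. Plasma membrane proton pumps, which acidify the wall, counted 5 suspensor-high genes and 1 embryo-proper-high gene among 9 measured, and the median of their log2 ratios was 1.16 beside 0.13 for all genes. The shares over all genes were 29.3% suspensor-high and 23.2% embryo-proper-high, as above. AHA3 (AT5G57350) had 128 RPKM in the suspensor and 6.15 RPKM in the embryo proper, 20.7-fold higher (18.1 to 23.9). AHA1 (AT2G18960) had 285 RPKM in the suspensor and 46.9 RPKM in the embryo proper. AHA11 (AT5G62670) was the embryo-proper-high one, at 5.67 RPKM in the suspensor and 15.7 RPKM in the embryo proper. AHA7 (AT3G60330), with 5 reads in the suspensor and 38 reads in the embryo proper, was also lower in the suspensor, at a log2 ratio of −0.71. AHA10 (AT1G17260), whose known site is the seed coat, had 2.40 RPKM in the suspensor and 3 reads in the embryo proper.

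Of 11 measured genes for making xyloglucan, 1 was suspensor-high and 4 were embryo-proper-high, beside 29.3% and 23.2% of all genes, and their median was −0.37. The widest differences were those of 2 backbone synthase genes. CSLC8 (AT2G24630) had 0.268 RPKM in the suspensor, from 4 reads, and 6.68 RPKM in the embryo proper, 24.9-fold lower in the suspensor (9.55 to 92.3). CSLC12 (AT4G07960) had no listed value in the suspensor and 72 reads in the embryo proper. Its embryo proper value was 13.6-fold above the floor of 3 reads in the suspensor, with counting error in the embryo proper left out. The xylosyltransferase gene XXT2 (AT4G02500) had 19.7 RPKM in the suspensor and 47.5 RPKM in the embryo proper, and its relative XXT5 (AT1G74380) had 26.7 RPKM in the suspensor and 25.7 RPKM in the embryo proper. XXT4 (AT1G18690) was the 1 suspensor-high gene, at 10.4 RPKM in the suspensor and 2.70 RPKM in the embryo proper. XLT2 was 1.83-fold (1.35 to 2.49) and FUT1 1.45-fold (1.07 to 1.96) higher in the suspensor. The 3 glycosidase genes that trim xyloglucan side chains were all embryo-proper-high. XYL1 (AT1G68560), an alpha-xylosidase, had 100.1 RPKM in the suspensor and 407 RPKM in the embryo proper, 4.07-fold lower in the suspensor (3.88 to 4.27). AXY8 (AT4G34260), a fucosidase, was 4.71-fold lower in the suspensor (3.57 to 6.32), and BGAL10 (AT5G63810), a galactosidase, 2.43-fold lower (2.05 to 2.90). Of 9 cellulose synthesis genes, 0 were suspensor-high and 3 were embryo-proper-high, namely CESA2, CESA6 and COB, and the median of the list was −0.83. Within 2-fold, CSI1 was 1.91-fold (1.72 to 2.13), CESA3 1.36-fold (1.18 to 1.57) and CESA1 1.27-fold (1.07 to 1.498) higher in the suspensor. CESA5, CESA9 and KOR1, also within 2-fold, were lower in the suspensor. The 23.2% of all genes that were embryo-proper-high stand beside the counts of both lists, and 3 of 9 is near that share.

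**Figure D5:**
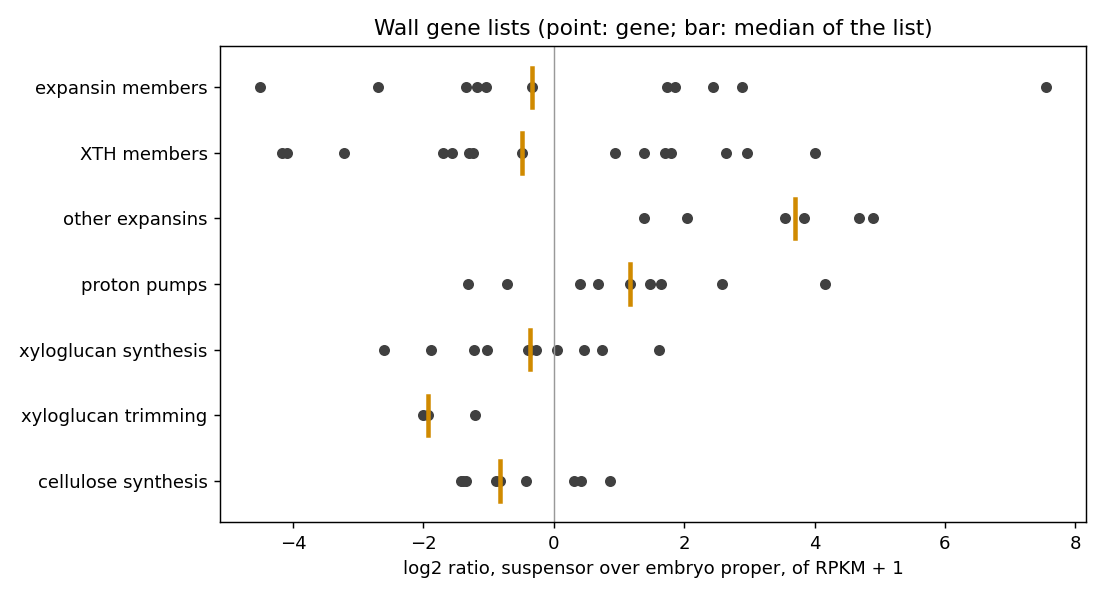
Log2 ratio of the suspensor to the embryo proper, on RPKM + 1, for genes with at least 1 RPKM in 7 lists, with 1 point per gene and a bar at the median of each list. Both member families spread to both sides, the other expansins lie on the suspensor side, and the 3 trimming genes lie on the embryo proper side.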

How the data were processed

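Transcripts were measured by RNA sequencing in 1 suspensor and 1 embryo proper library. Per the labels' protocols, 15 ng of total RNA was amplified to cDNA, 150 ng of which entered each library, with 15 cycles of PCR. The authors deposited RPKM values, per the file headers, and listed no gene at 0. HTSeq 0.6.1, HISAT2 2.0.6 and the genome TAIR10 are listed, without roles, in the submitters' processing notes. The sources used here state neither strand nor the treatment of reads with several matches.

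Names, coding lengths, gene order and sequences came from RefSeq (TAIR10.1). All 136 list genes matched by symbol and locus, and 19868 of 20029 listed genes were nuclear and protein-coding there. No coordinates are given, since the builds differ in name. Reads were recovered as the library size at which RPKM times coding length becomes whole: 97.8% of suspensor and 97.9% of embryo proper values from genes with 1 coding model lay within 0.05 of a whole read, where chance gives 10%. For members with several models, the length giving whole reads was used, so whole values there are no independent check. The floor of an unlisted gene was 3 reads per library.

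Levels were compared as log2 ratios, suspensor over embryo proper, with 1 RPKM added to both, which understates low genes; folds with intervals carry no pseudocount. Counts used genes that reached 1 RPKM in either library. Each member of at least 1 RPKM was named with its values and the rest were counted; of the other wall lists, mainly the highest genes and largest differences were named. The members and lists were chosen with earlier results of these data known. Scripts were tested on simulated data. Coding sequences were aligned globally in Biopython 1.88, and intervals used scipy 1.17.1. Alternatives were pseudocounts, filters, scalings, a 4-fold threshold and members listed in both files only.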

Additional observations from a re-analysis of the deposited data

How the results depend on the processing

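Of 86 alternative values, 58 stayed near the main value, 16 moved beyond counting error or 1.5 times, and 12 changed direction. For a family median, the counting error used was that of its middle gene alone, and for the difference of the medians both were combined. These wide intervals do not measure the error of a median. The difference counted as near 0.16 when it was 0.68 with a pseudocount of 0.1 RPKM. Those that ask for at least 20 reads, or leave out the 10 most abundant genes or named members, were chosen after seeing the data. No paired analysis was possible because each part has 1 library, and none has a replicate to leave out. All 26 members kept their direction under the 4 scalings; scaling without the 10 most abundant genes of each library, which shifts log2 ratios by 0.30 and puts the median of all genes at 0.40, changed the 2-fold call of EXPA10, EXPB3 and XTH24.

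Embryo-proper-high expansins numbered 5, but 2 with a pseudocount of 5 RPKM, 3 under that last scaling and 2 at 4-fold; suspensor-high ones numbered 3 at 4-fold, against 5. Embryo-proper-high XTH genes numbered 7, but 4 with a pseudocount of 5 RPKM, 3 with a filter of 10 RPKM and 3 at 4-fold, and suspensor-high ones 3 at 4-fold, against 6.

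The median of XTH genes, −0.49, was −1.03 with a pseudocount of 0.1 RPKM, 1.38 with a filter of 10 RPKM, 0.22 for genes listed in both files and 0.94 with at least 20 reads; fewer low genes enter the last 3. The difference between the family medians, 0.16, was −0.13 with a pseudocount of 5 RPKM, −0.034 without a filter, −1.71 with a filter of 10 RPKM, −0.56 for genes listed in both files and −1.28 with at least 20 reads, so it has no stable sign.

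The ratio of expansin sums, 1.05, was 1.01 scaled to equal sums, 0.971 scaled to a median log2 ratio of 0, 0.971 by the upper quartile, 1.30 without the 10 most abundant genes, 0.372 without EXPA14, 5.33 without EXPA15 and 1.42 without both. That of XTH sums, 0.532, was 0.490 scaled to the median, 0.490 by the upper quartile, 0.656 without the 10 most abundant genes and 1.57 without XTH9. Depth limits genes with few reads: 1 read was the whole suspensor evidence for XTH16.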
